A study of Mus musculus with 8 samples.

Results

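Apolipoproteins are the proteins that wrap lipid into lipoprotein particles, and the genes described here are those of the apolipoproteins made by the liver: Apoa1, Apoa2, Apoa4, Apoa5, Apob, Apoc1, Apoc2, Apoc3, Apoe and Apoh. Every probe whose symbol in the platform annotation was one of these 10 was taken, which gave 11 of the 25697 probes on the arrays, for 9 genes. Apoc1 and Apoc2 had 2 probes each, the other genes had 1, and no probe carries the symbol Apob, so that gene is not analysed here. The 11 probes were detected above the negative controls (detection p under 0.05) on 8 of 8 arrays, and all 11 were among the 11412 probes tested.

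Liver RNA was profiled on bead arrays, 1 array per mouse, from 4 male mice heterozygous for Jag1K295*/+ and 4 male wild-type mice. All 8 were 21 weeks old and of strain C3HeB/FeJ, so the groups shared everything the labels name except the allele, a nonsense change (K295*) in the Notch ligand gene Jag1. The series presents the heterozygotes as a model of Alagille syndrome, a paucity of bile ducts in which blood lipoproteins can be abnormal, and the comparison asks how liver transcripts differ between the genotypes. The sample titles write "hom" for the mutant group; the genotype field and the design text call it heterozygous, and that name is used here. Every animal has its own mouse number. No chip or hybridisation day is named, and no batch was available to test.

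Hepatocytes secrete triglyceride in very low density lipoprotein built around apolipoprotein B, and they release apolipoprotein A-I, which takes up cholesterol to form high density lipoprotein (HDL). The small C apolipoproteins move between particles and set how fast lipases empty them, and apolipoprotein E is the ligand by which the liver takes the remnants back. Apoa1, Apoc3, Apoa4 and Apoa5 lie in this order in a cluster on mouse chromosome 9, and Apoc2, Apoc1 and Apoe in a cluster on chromosome 7, in the GRCm38.p6 annotation.

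Heterozygous arrays were somewhat dimmer, with mean signals of 422 to 453 against 438 to 488 in wild type, and 11022 to 11873 against 11303 to 11515 detected probes. Heterozygous replicate 4 stood apart on the first principal component (30.3% of the variance), at 24.3 where the remaining 7 ran from -12.3 to 6.90. The liver label was checked against markers. Hepatocyte genes were among the brightest, with summed normalized signals of 89473 to 99018 in heterozygous and 91471 to 96216 in wild-type liver over 8 genes, from Trf (transferrin, mean deposited signal 24110) down to Fgb (fibrinogen beta, 117, detected on 0 arrays). The Alb probe, named after its value was seen, was detected on 2 of 8 arrays only. Markers of adipocytes (Adipoq highest, Fabp4 lowest) were detected on 0 arrays for 3 of 3 genes. Of 4 bile duct genes (Cldn7 highest, Krt19 lowest) 1 was detected on all 8 arrays, of 6 stellate cell genes (Dcn, Lrat) 2, of 6 endothelial genes (Clec4g, Kdr) 4, of 2 red cell genes (Hba-a1, Alas2) 2, of 3 neutrophil genes (S100a8, Ngp) 0, and of 4 exocrine pancreas genes (Cela1, Prss2) 2. The ranges of the summed levels overlapped between the genotypes for all of these lists.

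After normalization, Apoa4 was the one apolipoprotein gene whose genotypes did not overlap, and it was 26.7% lower in heterozygous liver. Of the 11 apolipoprotein probes tested with limma, 0 passed the threshold (adjusted p under 0.05 over all 11412 probes), where 1 probe of the whole array, Krt23, did, which is 0.00876% of those tested. At an unadjusted limma p under 0.05 there was 1 of 11, Apoa4, beside 11.2% of all tested probes in either direction and 5.95% with heterozygous lower. After normalization the groups did not overlap for 1 of 11, beside 6.25% of all tested probes in either direction and 3.1% with heterozygous lower. On the deposited signals they did not overlap for 3 of 11, Apoa4 and both Apoc1 probes. The share of all tested probes was not counted on that scale, so the 3 cannot be set against it. The median log2 fold change, heterozygous over wild type, was 0.00052 over the brightest probe of the 9 genes and 0.0063 over all tested probes. Log2 fold changes were below 0 for 5 of 11 probes, beside 48.1% of all tested probes, and for 4 of the 9 genes by their brightest probe, beside 45.6% of all named genes. Probes below 0 numbered 8 of 11 with median scaling, 9 of 11 in the authors' processed table and 11 of 11 without normalization. There the median of all tested probes itself lay at -0.10, or at -0.08 without background correction as well, and the median of the 9 genes at -0.08 in both. In bulk tissue, less RNA per cell and fewer cells of a type cannot be told apart.

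**Figure D1:**
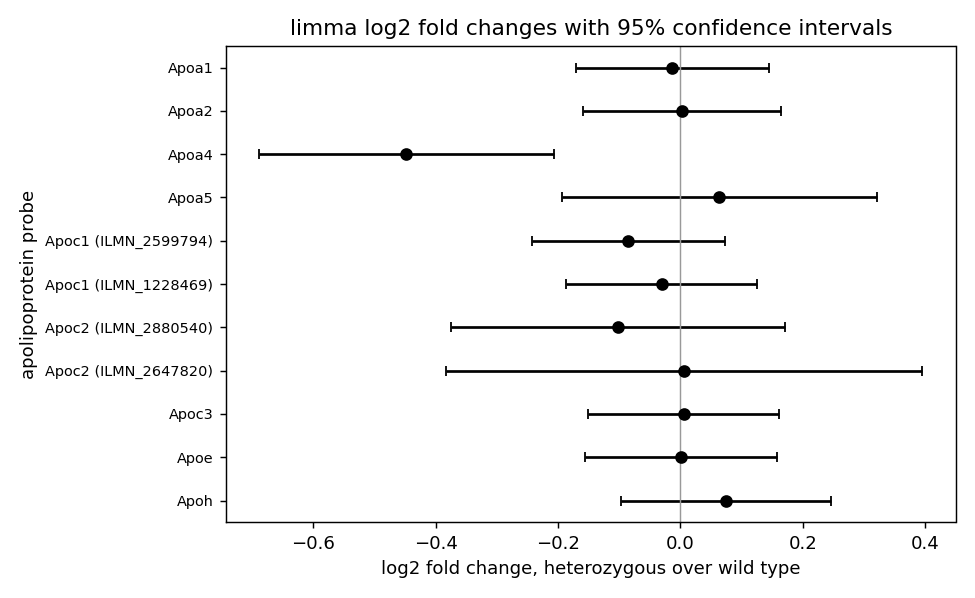
Log2 fold change of each apolipoprotein probe, heterozygous over wild type, from limma on background-corrected, quantile-normalized log2 signals (x axis), 1 row per probe. Points are estimates and bars 95% confidence intervals from 4 arrays per genotype; the interval of Apoa4, -0.69 to -0.21, lies below 0, and those of the other 10 probes include 0.

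Apoa4 encodes apolipoprotein A-IV, a protein of triglyceride-rich particles and HDL made by intestine and, in mice, also by liver. Its deposited signals were 2087, 2094, 1890 and 1741 in heterozygous liver, against 2515, 3022, 3195 and 2740 in wild-type liver. Every heterozygous value was under every wild-type value, with heterozygous replicates 3 and 4 the lowest of the 8. After normalization the log2 signal was 10.9 ± 0.21 in heterozygous and 11.4 ± 0.09 in wild-type mice (SD, n = 4 each). The log2 fold change was -0.45 ± 0.11 (SE), or 0.733-fold (95% confidence interval 0.621 to 0.866), with a limma adjusted p of 0.251. By unadjusted limma p (0.00189) the probe ranked 86 among the 11412, and the difference did not pass the threshold over the array. Under 19 other settings the log2 fold change ranged from -0.58 to -0.37 and the limma adjusted p from 0.0811 to 0.547, and the groups stayed apart in each. For settings that changed only the filter or the fit, or left an array out, that outcome was fixed. They use the same normalized values, so only other background steps, scalings or tables could have brought an overlap. Without heterozygous replicate 4, the array that stood apart, the log2 fold change was -0.37 (limma adjusted p = 0.401). The probe is of middling brightness, at 6.50 to 7.91% of the brightest probe's signal on heterozygous and 9.03 to 11.6% on wild-type arrays, so it is far from the top of the scale. Its within-group SD of 0.16 (log2) was larger than the median of 0.10 among the 500 tested probes ranked 501 to 1000 by brightness. The median size of log2 fold change there was 0.07 and the largest 0.77.

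The other genes of the cluster had log2 fold changes close to 0. Apoa1 encodes the main protein of HDL, Apoc3 an inhibitor of lipolysis and of remnant uptake, and Apoa5 an activator of triglyceride lipolysis. Within each array, the normalized log2 difference between the Apoa4 probe and a neighbour's probe was lower in heterozygous liver, with heterozygous minus wild type at -0.43 for Apoa1, -0.45 for Apoc3 and -0.51 for Apoa5. The 3 pairs share Apoa4 and were set side by side after its values were seen, so they restate the Apoa4 difference. On the deposited signals, with no normalization, they were -0.48, -0.47 and -0.50.

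**Figure D2:**
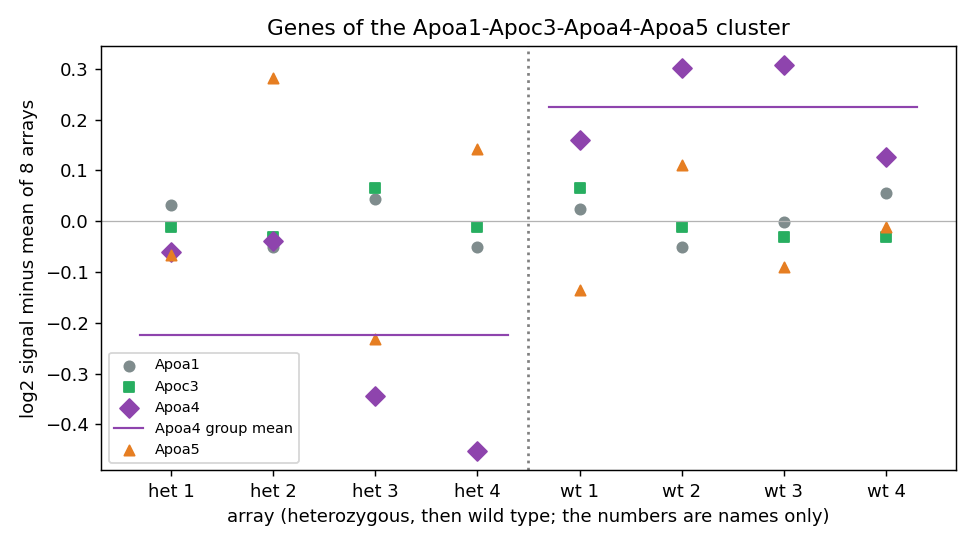
Normalized log2 signal of Apoa1, Apoc3, Apoa4 and Apoa5 on each array, minus the gene's mean over the 8 arrays (y axis), with heterozygous arrays on the left and wild-type arrays on the right. Horizontal lines are the group means of Apoa4; its 4 heterozygous values lie below its 4 wild-type values, while the values of the other 3 genes overlap between genotypes.

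The upstream sequences of the genes of this cluster are shown because Apoa4 and its neighbours differed in their log2 fold changes. Whether these sequences bear on the Apoa4 value was not tested. They are the 250 bases before the annotated start on the plus strand, 5′ to 3′, from RefSeq (GRCm38.p6): Apoa4 at chr9:46240594-46240843, Apoa1 at chr9:46228380-46228629 and Apoa5 at chr9:46268358-46268607, with Apoc3 named only. Capitals mark matches to 4 motifs, picked after the sequences were seen and searched on both strands.
Apoa4: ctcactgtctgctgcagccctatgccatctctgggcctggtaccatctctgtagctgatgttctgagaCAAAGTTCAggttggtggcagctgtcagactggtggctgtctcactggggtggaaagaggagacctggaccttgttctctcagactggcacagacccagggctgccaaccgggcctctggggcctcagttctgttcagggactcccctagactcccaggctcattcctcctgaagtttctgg
Apoa1: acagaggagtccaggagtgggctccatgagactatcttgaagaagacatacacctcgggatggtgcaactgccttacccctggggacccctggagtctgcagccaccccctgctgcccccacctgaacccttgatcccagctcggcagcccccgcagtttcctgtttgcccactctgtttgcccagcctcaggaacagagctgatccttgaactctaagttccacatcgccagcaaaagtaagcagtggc
Apoa5: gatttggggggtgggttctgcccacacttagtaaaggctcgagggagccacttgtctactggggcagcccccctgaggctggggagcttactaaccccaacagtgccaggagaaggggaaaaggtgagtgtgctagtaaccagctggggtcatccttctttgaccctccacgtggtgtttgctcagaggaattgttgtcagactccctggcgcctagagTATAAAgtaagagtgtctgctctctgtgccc

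Apoa4 holds 1 match, 182 to 174 bases before its start, to CAAAGTNCA, a form of the element bound by the hepatocyte nuclear receptor HNF4. These letters occur in 1.21% of the 27025 mouse upstream sequences of the same length. Among the 8 apolipoprotein genes with a sequence, which leave out Apoc1 and Apoc3, they occur in Apoa4 only. The form was picked after these sequences were seen, so neither the share nor this count sets Apoa4 apart from the other genes. Other forms of the HNF4 element were not searched, so the other genes may hold one. Apoa5 holds TATAAA, the TATA box, 31 to 26 bases before its start, a motif found in 13% of all sequences. The windows of Apoa4, Apoa1 and Apoa5 hold no AGGTCA, the half-site of nuclear receptors (13.8% of all sequences), and no GTTAAT, a half-site of HNF1 (6.53%). The 4 motifs did not overlap one another in these windows. A match is a run of letters, and whether a factor binds there was not measured.

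Apoa1 lay near the top of the scale. Its signals were 21991, 21060, 22190 and 21337 in heterozygous liver, against 23063, 21852, 22573 and 23754 in wild-type liver. The ranges overlapped, and the log2 fold change was -0.01 ± 0.07 (SE; limma adjusted p = 0.964), with a 95% interval in fold of 0.889 to 1.11. Apoa2 encodes the second most abundant protein of HDL. Its signals were 19606, 20794, 18177 and 20227 in heterozygous liver, against 20066, 20692, 21254 and 20357 in wild-type liver. Heterozygous replicate 3 was the lowest of the 8 arrays for Apoa2, and heterozygous replicates 2 and 4 lay within the wild-type range. The log2 fold change of Apoa2 was 0.0025 ± 0.07 (SE; limma adjusted p = 0.993; 95% interval in fold 0.895 to 1.12).

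Among the proteins that tune lipolysis, Apoc3 had signals of 22989, 22861, 24197 and 22658 in heterozygous liver, against 24930, 24483, 24720 and 23805 in wild-type liver. The heterozygous arrays were mostly the dimmer ones before normalization, but the groups overlapped. After it, the log2 fold change was 0.0051 ± 0.07 (SE; limma adjusted p = 0.986; 95% interval in fold 0.901 to 1.12). Apoa5 had signals of 771, 959, 784 and 941 in heterozygous liver, against 755, 972, 927 and 938 in wild-type liver. Both genotypes held low arrays of Apoa5, 771 and 784 in heterozygous and 755 in wild type, and the other 5 lay between 927 and 972. Its log2 fold change was 0.06 ± 0.12 (SE; limma adjusted p = 0.869), and the 95% interval in fold, 0.874 to 1.25, was wider than for the bright probes.

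Apoc2 encodes the cofactor that lipoprotein lipase needs. Its brighter probe (ILMN_2880540) had signals of 403, 369, 465 and 396 in heterozygous liver, against 453, 524, 420 and 449 in wild-type liver, with overlapping groups; heterozygous over wild type came to -0.10 ± 0.12 in log2 (SE; limma adjusted p = 0.786). Its dimmer probe (ILMN_2647820) ran from 141.2 to 168.7 in heterozygous and from 161.3 to 169.5 in wild-type liver, close to background, and its log2 fold change was 0.0063 ± 0.18 (SE), with a limma adjusted p of 0.992. Apoc1, which encodes an inhibitor of lipoprotein receptors and lipases, was bright with both probes. The brighter one (ILMN_2599794) had signals of 17790, 17279, 16388 and 17187 in heterozygous liver, against 18870, 18367, 19870 and 18306 in wild-type liver. On these deposited signals the groups of that probe did not overlap, nor did those of the other Apoc1 probe (14362 to 15199 in heterozygous, 15564 to 16856 in wild-type liver). After normalization both overlapped, with log2 fold changes of -0.09 ± 0.07 and -0.03 ± 0.07 (SE; limma adjusted p = 0.683 and 0.896). Apoc1 and the brighter Apoc2 probe kept a log2 fold change below 0 under all 19 other settings, some of which leave that value unchanged by design.

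Apoe, which in liver is made by hepatocytes and also by macrophages, had signals of 16050, 15207, 15661 and 15052 in heterozygous liver, against 16801, 16854, 16135 and 15966 in wild-type liver. The ranges overlapped between 15966 and 16050, and after normalization the log2 signal was 13.95 ± 0.03 in heterozygous and 13.95 ± 0.06 in wild-type mice (SD, n = 4 each). The log2 fold change of Apoe was 0.00052 ± 0.07 (SE; limma adjusted p = 0.999; 95% interval in fold 0.897 to 1.12). Kupffer cell and macrophage markers had summed normalized signals of 741 to 1008 in heterozygous and 873 to 1080 in wild-type liver, with 6 of 8 genes detected on all arrays, from Vsig4 (mean deposited signal 427) down to Cd5l (113, detected on 0 arrays). Their part in the Apoe value was not tested. Apoh encodes a phospholipid-binding plasma glycoprotein, beta-2-glycoprotein I. Its signals ran from 5184 to 6397 in heterozygous and from 5211 to 6291 in wild-type liver, and its log2 fold change was 0.07 ± 0.08 (SE; limma adjusted p = 0.751; 95% interval in fold 0.935 to 1.19).

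**Figure D3:**
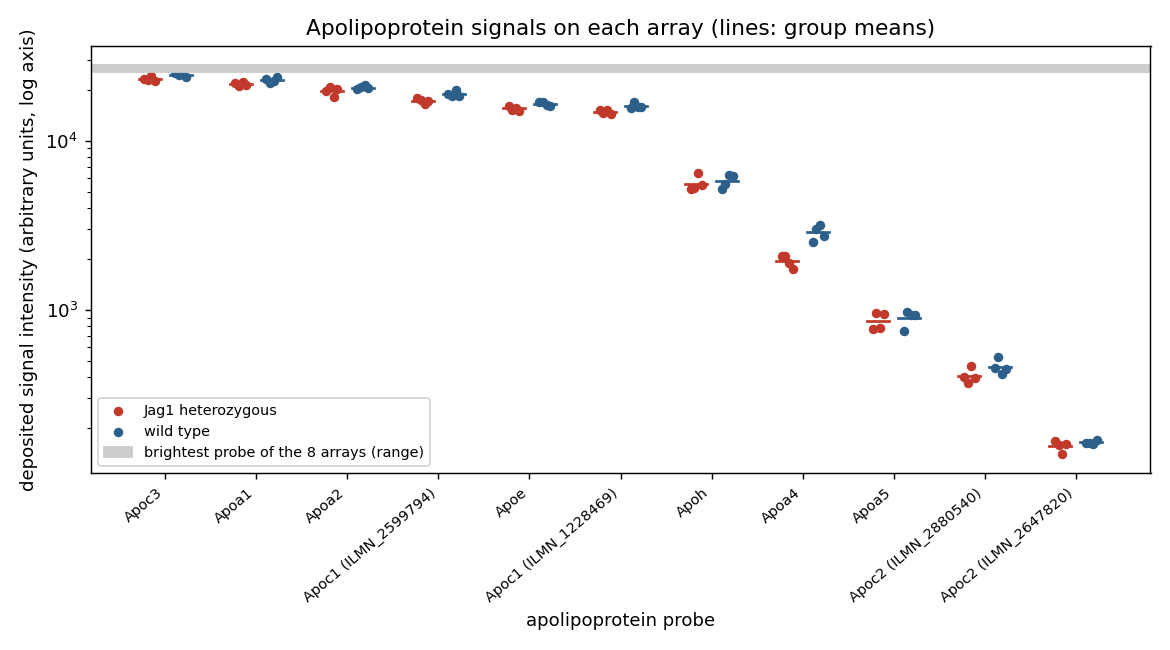
Deposited signal intensity (log axis, arbitrary units) of the 11 apolipoprotein probes, ordered by brightness, with each point 1 array and each short line a group mean, heterozygous left of wild type. The grey band spans the brightest probe's signal on the 8 arrays, 25482 to 27841; Apoc3, Apoa1 and Apoa2 lie just under it, and Apoa4 is the probe with the widest gap between the groups.

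The brightest probe of every array was a Serpina1b probe, with 25482 to 27081 on heterozygous and 27004 to 27841 on wild-type arrays. Apoc3 reached 84.4 to 95% of it in heterozygous and 86.1 to 90.7% in wild-type liver, and ranked between 2 and 5 among all 25697 probes. Apoa1 reached 77.8 to 87.1% and 80.9 to 85.9%, at ranks 6 to 12, and Apoa2 71.3 to 76.8% and 72.1 to 77.0%, at ranks 13 to 26. The Apoc1 probes and Apoe lay between 53.6 and 72.0% over all arrays. Brightness reflects how well a probe binds as well as how much RNA there is, so it does not order the genes by abundance. No pile-up at a maximum was seen, since 1 probe held the highest value on each array, and the scanner's ceiling is not given in the sources used here. From 56 to 65 probes on heterozygous and 65 to 78 on wild-type arrays exceeded a signal of 15000.

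The 6 apolipoprotein probes among the 100 brightest varied little between animals. Their within-group SDs were 0.04 to 0.06 on the log2 scale, and 96.9 to 98.9% of all tested probes had larger ones. The median SD was 0.06 over the 100 brightest probes and 0.21 over those ranked 8001 to 11412. Some groups were apart also at the top of the scale: they did not overlap for 7% of the 100 brightest probes, and the largest size of log2 fold change there was 0.33. Quantile normalization sets a probe's value by its rank, so arrays on which a probe holds the same rank give the same value. Whether the detector compresses true differences of these 6 probes was not tested.

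**Figure D4:**
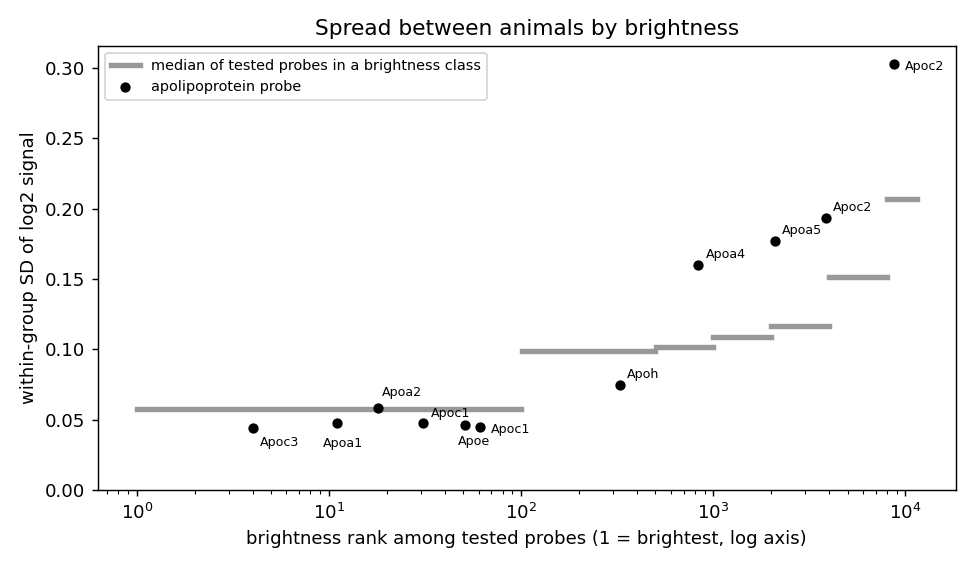
Within-group SD of the normalized log2 signal (y axis) of each apolipoprotein probe against its brightness rank among the 11412 tested probes (log axis, 1 = brightest). Grey bars are medians of all tested probes in brightness classes; the 6 brightest apolipoprotein probes lie at 0.04 to 0.06, and Apoa4 at 0.16 above the bar of its class at 0.10.

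Over the 8 arrays, Apoa4 had the widest range of log2 signal among the brightest probes of the 9 genes, 0.76, whereas Apoc3 had 0.10. The arrays with extreme values differed from gene to gene: heterozygous replicate 3 held the lowest value for 3 of the 9 genes and the highest for 2. Of the 7951 other named genes, the 3 whose brightest probe had the pattern most like that of Apoa4 were Nop10 (a small nucleolar ribonucleoprotein), Ces2e (a carboxylesterase) and Ugt3a1 (a glycosyltransferase). Their Pearson correlations over the 8 arrays, a description only, were 0.97, 0.97 and 0.96, and 44 genes exceeded 0.9. The log2 fold changes were -0.22 for Nop10, -0.40 for Ces2e and -0.26 for Ugt3a1 (limma adjusted p = 0.429, 0.309 and 0.344), and the dimmer Nop10 probe gave 0.04.

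Other genes of lipoprotein metabolism gave no call. Of 67 measured genes in 7 lists, 0 were higher and 0 lower past the threshold (limma, adjusted over all tested probes), 9 had an unadjusted p under 0.05, and the median log2 fold change was -0.02, beside 0.01 over all named genes. Of those named genes, 9.80% had an unadjusted p under 0.05. The groups did not overlap for 2 of the 67 genes, Pltp and Lsr, both lower in heterozygous liver. Over all 7960 named genes they did not overlap for 258 that were higher and 203 that were lower. Without heterozygous replicate 1 the count past the threshold was 1, Foxa2. In that setting 7 of all 11412 tested probes passed, against 1 in the main fit.

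Of 10 further apolipoproteins and lipoprotein-borne proteins, 0 passed and 8 had a log2 fold change above 0, with a median of 0.07. Of all 7960 named genes, 4329 were above 0. Apom, whose product carries sphingosine-1-phosphate in HDL, was at 0.18 ± 0.15 and Apon at 0.17 ± 0.12 (SE; limma adjusted p = 0.692 and 0.621). Apom was at 0.06 without heterozygous replicate 4, 0.11 without wild-type replicate 2 and 0.28 without heterozygous replicate 2 or wild-type replicate 1, and Apon at 0.27 without heterozygous replicate 1 and 0.09 without wild-type replicate 1. Of 12 genes of apolipoprotein B particle assembly and secretion 0 passed, with a median of -0.01. Sar1b, which encodes the GTPase of the coat that carries these particles out of the endoplasmic reticulum, was at -0.25 ± 0.09, and Mia2, an export factor of the endoplasmic reticulum, at -0.46 ± 0.21 (SE; limma adjusted p = 0.385 and 0.447). The other Sar1b probe gave -0.246. Without heterozygous replicate 4, the array that stood apart, Mia2 was at -0.27 (limma adjusted p = 0.685). Of 4 genes of Apob mRNA editing 0 passed, with a median of -0.06, Celf2 at -0.16 ± 0.12 and Syncrip at 0.16 ± 0.15 (SE; limma adjusted p = 0.649 and 0.710). Celf2 was at -0.05 without heterozygous replicate 4 but -0.24 when replicate 2 of that genotype was left out, and Syncrip at 0.01 without wild-type replicate 4.

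Of 7 genes of HDL formation and exchange 0 passed, with a median of -0.04. Pltp, which encodes the phospholipid transfer protein that feeds surface lipid to HDL, had log2 signals of 8.96, 9.49, 9.44 and 7.73 in heterozygous liver, against 9.94, 10.1, 9.75 and 10.2 in wild-type liver. All heterozygous arrays were lower, replicate 4 by the most. The log2 fold change of Pltp was -1.08 ± 0.33 (SE; limma adjusted p = 0.309), and that of its second probe was -1.09. Without heterozygous replicate 4 the Pltp value was -0.69 (limma adjusted p = 0.303). Scarb1, the HDL receptor gene, was at 0.21 ± 0.12 (SE; limma adjusted p = 0.550), and at 0.10 without heterozygous replicate 3. Of 5 lipolysis genes 0 passed, with a median of 0.10. Lpl, which encodes lipoprotein lipase, was at 0.82 ± 0.29 and Angptl8, which encodes an inhibitor of that enzyme, at -0.49 ± 0.26 (SE; limma adjusted p = 0.372 and 0.504). Angptl8 was at -0.25 without heterozygous replicate 4 (limma adjusted p = 0.767).

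Of 5 lipoprotein receptor genes and their regulators 0 passed, with a median of 0.10. Lsr, which encodes a receptor for triglyceride-rich lipoproteins, had log2 signals of 9.19, 9.16, 9.13 and 8.92 in heterozygous liver, against 9.49, 9.53, 9.35 and 9.22 in wild-type liver. The groups of Lsr did not overlap, and its log2 fold change was -0.30 ± 0.10 (SE; limma adjusted p = 0.337). Sdc1, a heparan sulfate proteoglycan that binds remnants, was at 0.25 ± 0.10 (SE; limma adjusted p = 0.414). The other Sdc1 probe gave 0.0676. Of 24 transcription factors of apolipoprotein genes 0 passed, 17 were below 0, beside 45.6% of all named genes, and the median was -0.07. Genes of a list are not replicates of one another, so the count is a description. Foxa2, a forkhead factor, was at -0.59 ± 0.19 and Ppara, the fatty acid receptor of the liver, at -0.40 ± 0.13 (SE; limma adjusted p = 0.337 and 0.354). Hnf4a, named after its value was seen because of the element in the Apoa4 window, was at 0.19 ± 0.10 (SE; limma adjusted p = 0.488).

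**Figure D5:**
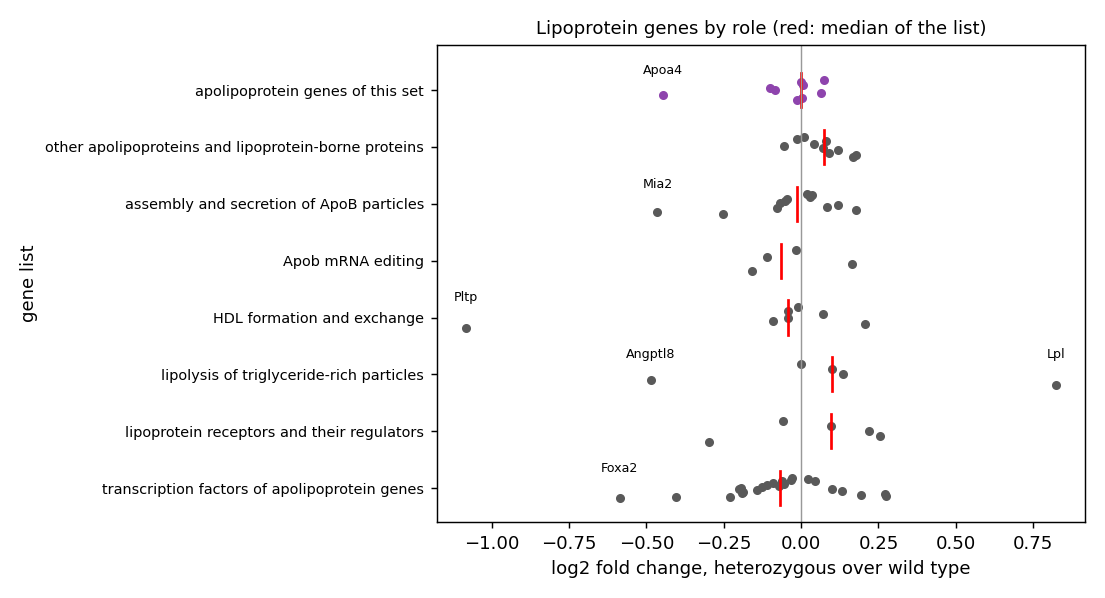
Log2 fold change, heterozygous over wild type (x axis), of the brightest tested probe of each gene, with the 9 apolipoprotein genes in the top row and the 7 lists of other lipoprotein genes under it. Red bars are list medians, between -0.07 and 0.10; Apoa4, Mia2, Pltp, Angptl8, Lpl and Foxa2 lie farthest from 0.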

How the data were processed

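For 25697 probes on 8 arrays the authors deposited a signal intensity and a detection p-value, as the file headers name them, processed with GenomeStudio 2011.1 per the submitters' processing notes. Their further table holds processed intensity values on a linear scale, some below 0; no source used here says how it was made. Signals were background-corrected with nec of limma 3.58.1 (R 4.3.3; offset 16), quantile normalized and taken as log2. Probes with a detection p under 0.05 on at least 4 of 8 arrays were tested (11412). The genotypes were set against each other in limma (lmFit, eBayes), with two-sided p-values adjusted by Benjamini-Hochberg across the tested probes. Symbols came from GEO's platform annotation (23978 probes with 1 symbol, 1719 with none; 0 changed by the GRCm38.p6 update). The brightest tested probe stood for a gene. The number of arrays limits the precision. The limma fit and the check for groups that do not overlap were tried on simulated normalized values with known changes. The background, normalization and filter steps were not tried in that way.

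All 11 probes of the 9 genes with a probe are described. Of each pathway list, genes past the threshold were to be named, or else the 2 with the smallest p; of each marker list, the brightest and the dimmest gene. The members and lists were chosen with earlier results of these data known. Replicates are separate animals. The pathway genes named were also refitted with each array left out, a choice made after the data were seen. Alternatives varied the background step (none, or offset 50), the scaling (median, or none), the filter (none, or detection p under 0.01 on all arrays), the table (the processed one), the fit (replicate block, array weights, trended and robust prior), the arrays (each left out in turn), the threshold (0.10) and the probe standing for a gene (mean of its probes).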

Additional observations from a re-analysis of the deposited data

Results flagged for a closer look

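Among 22 sets of 4 values, 1 for each apolipoprotein probe and genotype, 0 had 1 value well away from the rest by Dixon's criterion, which chance meets in about 1 set of 20.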

How the results depend on the processing

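Of 209 repeats of a probe's log2 fold change under another setting, 170 kept its direction and side of the threshold and 39 changed sign, all of these for values near 0, and 0 passed the threshold. The settings of the filter, the replicate block and the prior leave the log2 fold change as it was. Those repeats are among the 170 and could not change sign. Apoa4, both Apoc1 probes and the brighter Apoc2 probe did not change sign. Without normalization and background correction, Apoa2 was at -0.065, Apoa5 at -0.056, the dimmer Apoc2 probe at -0.066, Apoc3 at -0.079, Apoe at -0.086 and Apoh at -0.060, the median of the 9 genes was -0.079 and 3 probes did not overlap (Apoa4 and both of Apoc1). With normalization alone left out, an alternative added after the data were seen, Apoa2 was at -0.065, Apoa5 at -0.057, the dimmer Apoc2 probe at -0.11, Apoc3 at -0.080, Apoe at -0.086 and Apoh at -0.060, the median was -0.080 and 3 probes did not overlap. With median scaling the dimmer Apoc2 probe was at -0.039, Apoc3 at -0.013 and Apoe at -0.020. In the processed table Apoa2 was at -0.0015, the dimmer Apoc2 probe at -0.017, Apoc3 at -0.021 and Apoe at -0.0065. With 1 array left out, Apoa1 ranged from -0.032 to 0.0031, Apoa2 from -0.019 to 0.036, Apoa5 from -0.020 to 0.15, the dimmer Apoc2 probe from -0.11 to 0.19, Apoc3 from -0.016 to 0.028 and Apoe from -0.026 to 0.020. The count of apolipoprotein probes that did not overlap was then 1 to 2 (2 without wild-type replicate 2, the brighter Apoc1 probe being the other) and that of pathway genes past the threshold 0 to 1 (Foxa2, without heterozygous replicate 1). The share of all tested probes that did not overlap was counted under the main setting only. The counts given here, also the 3 without normalization, therefore cannot be set against it. Over all tested probes, limma called 0 without background correction, 0 without the filter, 2 without normalization and background correction, 3 without normalization alone and 0 to 7 with 1 array left out (7 without heterozygous replicate 1, 2 without heterozygous replicate 2, 0 without heterozygous replicate 3 or wild-type replicate 4).

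With the replicate number as a block limma called 0 probes, and Apoa4 was at -0.45 (adjusted p = 0.249). Samples with the same number deviated together with correlations of -0.067, 0.133, 0.0953 and 0.0767 over the tested probes. Heterozygous replicates 2 and 3 correlated best with the wild-type replicate of the same number, and replicates 1 and 4 with wild-type replicates 3 and 1. With 4 such pairs and no chip named, this cannot show whether a shared number marks shared handling. With 4 arrays per genotype the 95% intervals of the 6 brightest probes ran from 0.845 to 1.12 in fold, and those of the dimmer Apoc2 probe from 0.767 to 1.32. A BeadChip block was not run, because no chip is named. Causes of these changes were not tested.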
